A study of Mus musculus with 6 samples.

Results

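The genes described here encode the machinery of autophagy and the lysosome. They are 33 genes picked by name: 22 genes of the autophagy machinery, 8 lysosomal genes and the 3 transcription factor genes Tfeb, Tfe3 and Mitf. They were measured in cells sorted as hematopoietic stem cells (HSCs), the cells that renew the blood. The arrays were 3 of wild-type mice and 3 of CDK19-/- mice, all aged 6 to 8 weeks. Marrow was flushed from tibia, femur and ilium, depleted of lineage-positive cells, stained and sorted by flow cytometry, and total RNA was labelled with biotin. CDK19 is a Mediator kinase, and Mediator connects transcription factors with RNA polymerase II. The labels do not give the strain, sex, sort gate, deleted part of Cdk19, number of animals per array, or whether the deletion was limited to blood cells, so p-values measure the spread between these arrays. A member was read from the array feature (transcript cluster) whose platform annotation gives exactly its symbol. That held for 31 of the 33, with 1 cluster each, out of 30142 named genes in the series. Optn had no cluster of its own, the cluster naming Ctsd names another gene too, and neither was analysed here.

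Autophagy encloses cytoplasm, damaged organelles and protein aggregates in a double membrane, the autophagosome, which fuses with the lysosome. The ULK1 kinase complex starts the process, a lipid kinase complex around Beclin 1 marks the site, and an enzyme cascade like that of ubiquitin couples LC3 and GABARAP proteins to the membrane. Receptors such as p62 then bind both ubiquitin-marked cargo and LC3. TFEB and its relatives switch on lysosomal and autophagy genes when nutrients are scarce or lysosomes are stressed. In HSCs, autophagy is known for clearing mitochondria and holding cells in a state of low metabolic activity.

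Values are the authors' log2 expression values, which had array medians between 4.40 and 4.48, and a change is the knockout mean minus the wild-type mean. Cdk19 itself had a wild-type mean of 12.44 ± 0.06 and a knockout mean of 11.47 ± 0.05 (SD over 3 arrays). It was lower on every knockout array, as a knockout label has it, by 1.95-fold. The knockout mean was still far above the array medians. Clusters were called at a p under 0.05 from limma after Benjamini-Hochberg (BH) adjustment, over 39543 clusters. Of these, 2.96% were called higher and 4.84% lower in the knockout, and of the 20260 tested clusters with 1 gene symbol, 3.55% were called higher and 5.97% lower. Markers of other cells moved too. Of 10 tested lymphoid and B cell markers 7 fell and 0 rose, and their summed linear level was 33876 to 34440 on wild-type arrays and 16827 to 17842 on knockout arrays. Of 7 tested megakaryocyte markers 4 rose and 0 fell, with summed levels of 1068 to 1119 and 1994 to 2063. Of 10 tested HSC markers 3 fell (Kit, Hlf and Meis1) and 0 rose, with sums of 29501 to 29843 and 20312 to 21399. Wild-type means were 14.53 for Kit, 12.10 for Meis1 and 9.69 for Hlf. The other markers of that list were dimmer, such as Procr at 7.29 and Slamf1 at 5.78. Flt3, of the lymphoid list, was at 14.51. The share of stem cells among the sorted cells was not tested. Granulocyte sums were 134289 to 135287 and 128113 to 134422, with 3 of 12 tested markers higher and 0 lower. Erythroid sums were 697 to 743 and 760 to 784, with 0 of 4 called. In most lists a single gene carried the sum: Mpo made up 91.0% to 92.7% of the granulocyte sum, Tfrc 88.5% to 89.8% of the erythroid, Kit 79.5% to 82.4% of the HSC, Flt3 67.9% to 73.6% of the lymphoid and F2r 57.0% to 69.7% of the megakaryocyte sum. Without these genes the lymphoid (10534 to 10946 against 4581 to 5114), megakaryocyte (460 to 471 against 604 to 635) and HSC sums (5844 to 6118 against 3584 to 3960) kept their direction. The granulocyte sum without Mpo was higher in the knockout (9842 to 10422 against 10800 to 12128), and the erythroid sums without Tfrc overlapped (77.5 to 85.4 against 79.4 to 84.3). In sorted bulk cells, fewer cells of a type and less RNA per cell cannot be told apart, and the part of these shifts in the results was not tested.

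All 31 members passed the filter on dim clusters, and 4 of them were called. Sqstm1 and Atg16l1 rose, and Gabarapl1 and Nbr1 fell. The other 27 did not pass. Sqstm1 and Nbr1 encode cargo receptors, Gabarapl1 a protein that is attached to the autophagosome membrane, and Atg16l1 a part of the complex that places it there. All 4 are autophagy machinery, where 2 of 21 measured members rose, 2 fell and 17 did not pass. Of all tested clusters with 1 symbol, 3.55% were called higher and 5.97% lower. At such shares lists this short hold few calls, and the counts were not compared by a test. Among lysosomal and TFEB-family genes 0 of 10 passed in either direction. At an unadjusted p under 0.05, 6 of those 10 passed, each with a positive change: Ctsl, Lamp2, Lamp1, Npc1, Ctsb and Tfe3. Of the tested clusters with 1 symbol, 9.61% passed that threshold with a positive change and 15.0% with a negative one. In the autophagy machinery, Sqstm1, Atg16l1 and Atg3 passed it with a positive change, and Atg14, Gabarapl1 and Nbr1 with a negative one. With 1 array left out, 1 or 2 members were called higher and 1 or 2 lower. The count higher dropped to 1 when wild-type array 2 or 3 was the one left out. The count lower dropped to 1 when it was a wild-type array or knockout array 3.

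**Figure D1:**
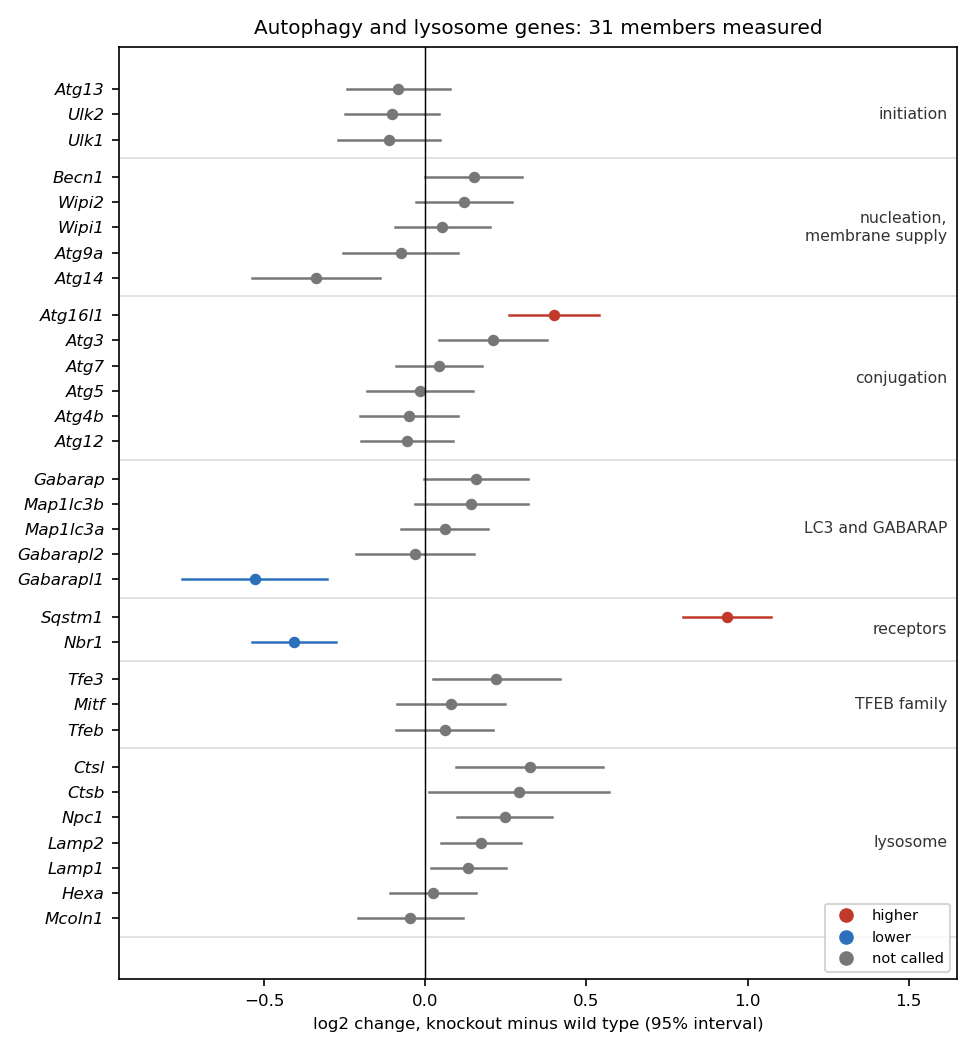
Log2 change (knockout minus wild type, horizontal axis) of the 31 measured members, grouped by role, with the 95% interval of the moderated fit as a line. Red points were called higher, blue points lower and grey points were not called; Sqstm1 stands at 0.94 and Gabarapl1 at -0.53, and the lysosomal genes lie mostly to the right of 0.

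Sqstm1 encodes p62, the receptor that links ubiquitinated cargo to LC3 and also serves as a scaffold in NF-kB signalling and in the oxidative stress response through KEAP1. Its gene is on chromosome 11. It was at 12.27, 12.15 and 12.13 on wild-type arrays 1 to 3 and at 13.15, 13.06 and 13.15 on the knockout arrays. Every knockout array stood above every wild-type array, by far more than the arrays of a genotype differed among themselves. The log2 change was 0.94 (SE 0.06; limma with BH, adjusted p = 5.2e-04), or 1.91-fold. The call held in all 12 alternative settings that were run, with adjusted p from 5.0e-04 to 0.0074.

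Nbr1, also on chromosome 11, encodes another ubiquitin-binding receptor that can act together with p62, and it went the other way. It was at 8.56, 8.63 and 8.61 in wild type and at 8.20, 8.20 and 8.18 in knockout. The 3 knockout arrays were nearly equal and all below the wild-type arrays. The log2 change was -0.41 (SE 0.05; limma with BH, adjusted p = 0.0080), a level 1.33-fold lower. The call held without any 1 of the 6 arrays.

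The LC3 and GABARAP proteins are the small ubiquitin-like proteins that become attached to the autophagosome membrane and hold the receptors there. Of the 5 members measured, Gabarapl1 fell and the other 4 did not pass. Gabarapl1, on chromosome 6, was at 9.50, 9.41 and 9.60 in wild type and at 9.09, 8.80 and 9.03 in knockout. The groups did not overlap, and knockout array 2 was the lowest of the 6. Its log2 change was -0.53 (SE 0.09; limma with BH, adjusted p = 0.021), or 1.44-fold lower. This call did not hold when wild-type array 1 (adjusted p = 0.072), 2 (0.055) or 3 (0.089) or knockout array 3 (0.053) was left out, with log2 changes between -0.59 and -0.44 over the 6 runs. Its close relatives had small positive or negative changes: Gabarap 0.16 (95% interval -0.0049 to 0.32), Map1lc3b 0.14 (-0.032 to 0.32), Map1lc3a 0.060 (-0.075 to 0.20) and Gabarapl2 -0.033 (-0.22 to 0.15). None of these 4 intervals reaches the Gabarapl1 estimate, but the difference between the genes was not tested. Family members are similar in sequence, and whether their probes cross-hybridise was not tested.

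**Figure D2:**
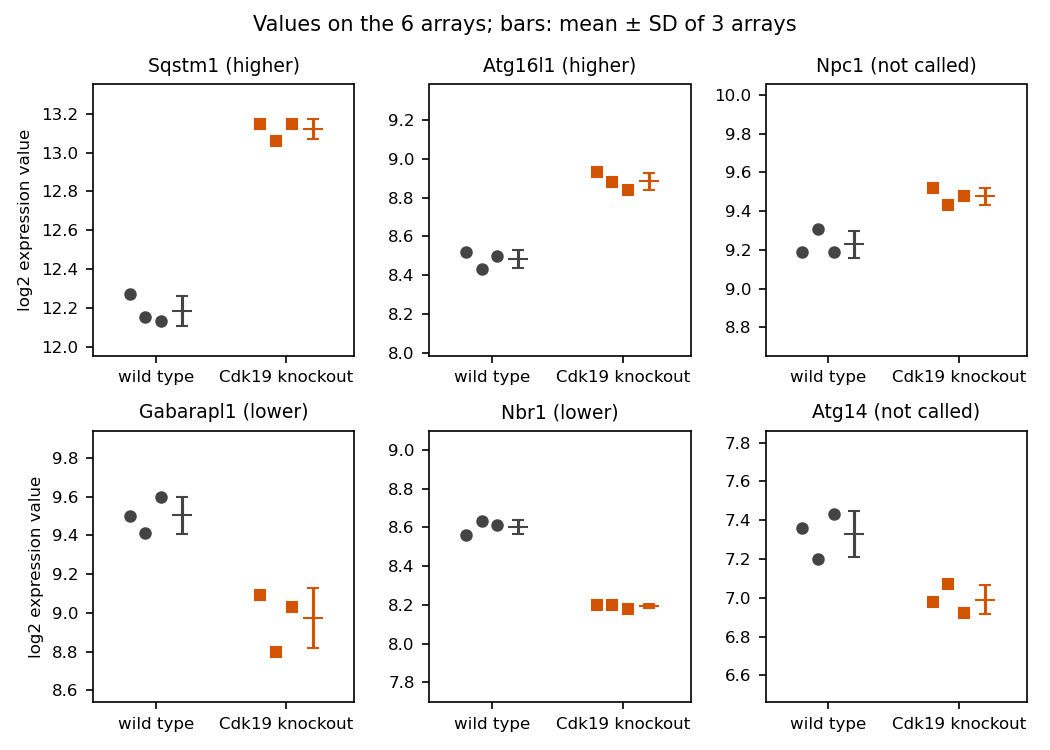
Log2 expression values (vertical axis, the same span in each panel) of 6 members on the 3 wild-type arrays (circles) and the 3 Cdk19 knockout arrays (squares), with mean ± SD beside them. Sqstm1 and Atg16l1 were called higher, Gabarapl1 and Nbr1 lower, and Npc1 and Atg14 did not pass although their groups do not overlap.

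The conjugation cascade comprises ATG7 (its activating enzyme), ATG3 (the enzyme that transfers LC3 to lipid), ATG4B (the protease that trims LC3) and the ATG12, ATG5 and ATG16L1 complex that tells the cascade where to act. Of the 6 genes, Atg16l1 rose and 5 did not pass. Atg16l1, on chromosome 1, was at 8.52, 8.43 and 8.50 in wild type and at 8.93, 8.88 and 8.84 in knockout. All knockout values were above all wild-type values. Its log2 change was 0.40 (SE 0.06; limma with BH, adjusted p = 0.011), or 1.32-fold, and the call did not hold when wild-type array 2 (adjusted p = 0.055) or 3 (0.053) was left out. The partners of its complex had smaller estimates, with Atg5 at -0.017 (95% interval -0.18 to 0.15) and Atg12 at -0.057 (-0.20 to 0.087). Atg3 was at 10.25, 10.20 and 10.12 in wild type and at 10.48, 10.43 and 10.29 in knockout. Its groups did not overlap, but the log2 change of 0.21 did not pass (limma with BH, adjusted p = 0.14). Atg7 and Atg4b had changes of 0.043 and -0.050 and overlapping groups.

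None of the 3 genes of the initiating complex passed. Ulk1 and Ulk2 encode the initiating kinases and Atg13 their regulatory partner. Their log2 changes were -0.11, -0.10 and -0.083, with 95% intervals that reached no lower than -0.27 and no higher than 0.077. Ulk2 lay between 8.10 and 8.17 in wild type and between 7.96 and 8.08 in knockout, the only 1 of the 3 whose groups did not overlap.

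The Beclin 1 complex makes the lipid mark of the forming autophagosome, and ATG14 directs that complex to autophagy. Atg14 was at 7.36, 7.20 and 7.43 in wild type and at 6.98, 7.07 and 6.92 in knockout. Every knockout array was lower, yet the log2 change of -0.34 (SE 0.08) missed the threshold (limma with BH, adjusted p = 0.059). It passed when only the brightest 40% of clusters were kept (adjusted p = 0.039) or when all arrays were moved to 1 median (0.049). It passed in no other setting. The adjusted p from limma was 0.099 after quantile normalization and 0.067 to 0.19 with 1 array left out. Becn1, which encodes Beclin 1, was at 8.25, 8.29 and 8.34 in wild type and at 8.52, 8.40 and 8.41 in knockout, a log2 change of 0.15 (95% interval -0.00060 to 0.30). Wipi1 and Wipi2 encode readers of the lipid mark and had changes of 0.053 and 0.12. Atg9a, whose protein brings membrane on vesicles, had a change of -0.077, and its 95% interval ran from -0.26 to 0.10.

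The lysosomal genes had small positive changes, none of which passed. The positive sign was shared by 6 of the 7 measured, with Mcoln1, a calcium channel of the lysosomal membrane, at -0.047. The list's median was 0.17. Over all 10 lysosomal and TFEB-family genes the median was 0.15, against -0.017 over the 21 autophagy machinery genes and -0.0033 over all tested clusters with 1 symbol. The median of the 10 kept its sign after quantile normalization, with a common median and with 1 array left out, from 0.12 to 0.18. Among these settings the median of the autophagy machinery changed sign. Settings that alter only the filter or the fit cannot move a median, so they are not counted here. With arrays shifted to a common median, 8 of the 10 changes were positive in place of 9.

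Npc1, which exports cholesterol from the lysosome, was at 9.19, 9.31 and 9.19 in wild type and at 9.52, 9.43 and 9.48 in knockout. Its groups were apart, and its log2 change of 0.25 (SE 0.06) was just short of the threshold (limma with BH, adjusted p = 0.064). It passed after quantile normalization (adjusted p = 0.037) and with the brightest 40% of clusters kept (0.046), and its adjusted p was 0.17 with a common median. The cathepsins B and L are proteases of the lysosome. Ctsl was at 7.53, 7.34 and 7.37 in wild type and at 7.80, 7.57 and 7.84 in knockout, and its log2 change was 0.32 (SE 0.10; limma with BH, adjusted p = 0.11). Ctsb was at 11.22, 11.21 and 11.15 in wild type and at 11.34, 11.35 and 11.76 in knockout. Knockout array 3 stood well above the other 2 knockout arrays, and the log2 change of 0.29 (SE 0.12; limma with BH, adjusted p = 0.22) became 0.15 without it. That array also had the highest summed level of macrophage and monocyte markers, 9143, where the other knockout arrays had 6510 and 7244 and the wild-type arrays 7399 to 8636. Most of the spread among knockout arrays came from Ly6c2, at 1607, 2470 and 3666 on the linear scale. The other markers of the list summed to 4903, 4775 and 5477 on the knockout arrays and to 4789 to 5004 on the wild-type arrays. Of the 13 tested markers on that list 2 rose (Cd14 and Itgam) and 1 fell (Mpeg1), C1qa and C1qb were too dim to test, and the part of such cells in the Ctsb value was not tested.

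**Figure D3:**
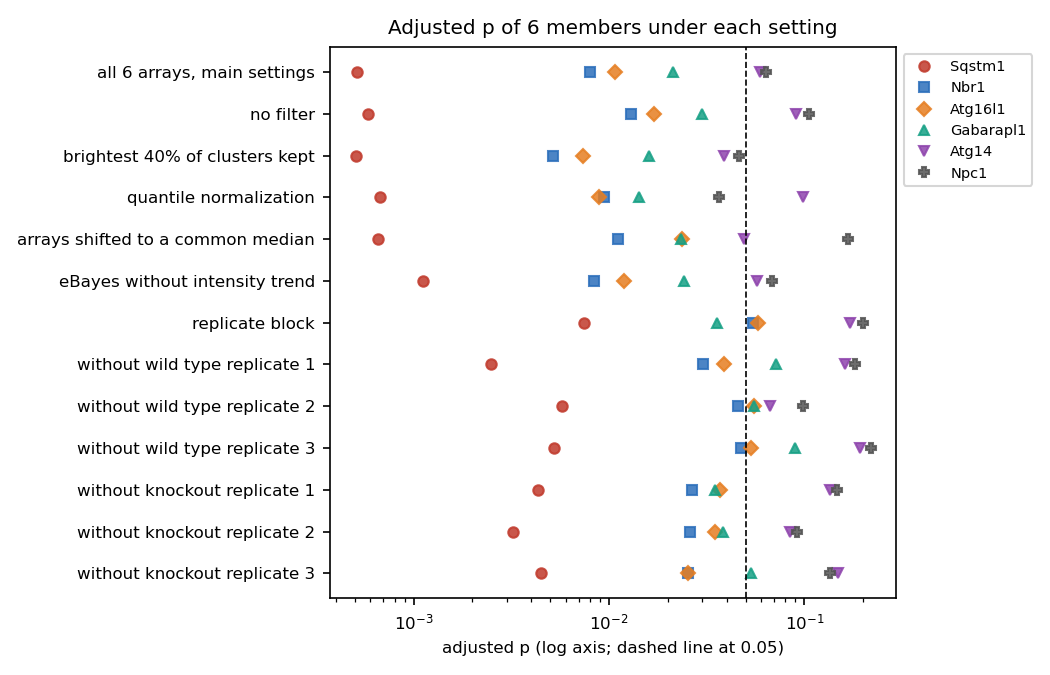
Adjusted p from limma (log axis, dashed line at 0.05) of 6 members with the main settings and under each alternative. Sqstm1 stays at or below 0.0074 throughout, while Atg16l1, Gabarapl1 and Nbr1 cross the line in some settings. Atg14 and Npc1 lie above it with the main settings and in most alternatives, with Atg14 reaching 0.19.

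Lamp1 and Lamp2 encode the main glycoproteins of the lysosomal membrane. Lamp1 was at 12.11, 12.21 and 12.16 in wild type and at 12.31, 12.26 and 12.31 in knockout, and Lamp2 at 12.33, 12.29 and 12.33 and at 12.56, 12.42 and 12.49. In both genes the lowest knockout value was above the highest wild-type value, with log2 changes of 0.13 and 0.17 (limma with BH, adjusted p = 0.17 and 0.11). Hexa, which encodes a subunit of the enzyme that degrades GM2 ganglioside, had a change of 0.023 (95% interval -0.11 to 0.16).

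Tfeb, Tfe3 and Mitf did not pass either. Tfe3 was at 6.25, 6.20 and 6.28 in wild type and at 6.60, 6.34 and 6.45 in knockout, so the groups were apart. Its log2 change was 0.22 (SE 0.08; limma with BH, adjusted p = 0.18). Tfeb and Mitf had changes of 0.060 (95% interval -0.091 to 0.21) and 0.080 (-0.088 to 0.25), with overlapping groups. Tfec, a relative placed in the wider nutrient sensing list, went the other way, with every knockout array below every wild-type array. Its log2 change of -0.23 (95% interval -0.37 to -0.092) did not pass (limma with BH, adjusted p = 0.066). These factors are controlled to a large part by where the protein sits in the cell, which RNA levels do not report.

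Across the members, 13 of 31 (41.9%) had every knockout array above every wild-type array and 4 (12.9%) had the reverse. Among all tested clusters with 1 symbol the shares were 13.1% and 19.2%. The first count depends on scaling. With arrays shifted to a common median, 7 members (22.6%) stood above, against 8.9% of those clusters, and 4 (12.9%) below, against 21.7%. Of the lysosomal and TFEB-family genes, 6 of 10 were above and 0 below as deposited, and 3 of 10 above and 0 below with a common median. Among the wider pathway genes described below, more stood below than above as deposited. That was so among all tested clusters with 1 symbol too, and shares with a common median were not computed for the wider genes. Of the 152 wider genes with a cluster, 17.1% stood above and 28.3% below, and of the further autophagy genes among them 11.1% and 40.7%.

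TFEB and its relatives bind an E-box, the letters CACGTG, which read the same on both strands, and prefer the longer form TCACGTGA, which holds the shorter one. RefSeq promoters (GRCm38.p6, 250 bases before to 50 after the start of the gene) were at hand for 27 of the 33 members. The E-box was present in 8 of these (29.63%), and in 8.09% of all 27025 genes with a promoter in the table, or 10.6% of those tested on the arrays. It was found in 4 of 6 lysosomal genes (Lamp1, Ctsd, Ctsl and Mcoln1), in 4 of 18 autophagy genes (Atg14, Atg3, Atg5 and Atg7) and in 0 of the 3 TFEB-family genes. Among the wider pathway genes described below, 2 of 24 further autophagy genes (8.33%) held it, near the share of all genes. In the other wider lists the share was 18.18% to 36.36%. The longer form was present in 3 members (11.11%; Atg3, Ctsd and Mcoln1) and in 1.12% of all genes. The stretches around the boxes show how the motif is arranged in members whose RNA was measured, with the E-box or its longer form in capitals, read 5′ to 3′ on the strand of the gene.
Lamp1 (chr8:13159083-13159168, + strand): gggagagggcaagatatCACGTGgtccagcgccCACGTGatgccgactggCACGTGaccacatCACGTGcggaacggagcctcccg
Mcoln1 (chr8:3500431-3500496, + strand): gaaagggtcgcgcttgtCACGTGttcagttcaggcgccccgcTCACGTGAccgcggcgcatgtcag
Atg3 (chr16:45158718-45158780, + strand): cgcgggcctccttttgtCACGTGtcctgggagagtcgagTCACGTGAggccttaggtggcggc
Ctsl (chr13:64370734-64370770, - strand): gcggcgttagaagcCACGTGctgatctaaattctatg
Atg14 (chr14:47568413-47568452, - strand): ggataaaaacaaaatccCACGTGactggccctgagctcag

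Lamp1 holds 4 E-boxes within 86 bases, the closest beginning at position -15 from the start, and Mcoln1 and Atg3 hold 2 each. The box of Atg14 begins at position -1, and that of Ctsl at -236. Of the 3 called members with a promoter in the table, Sqstm1, Gabarapl1 and Nbr1, none holds the motif in this window. Measured members with an E-box had a median log2 change of 0.043 (n = 7, 0 called), and those without it 0.038 (n = 18, 1 called higher and 2 lower). For the wider genes the median was -0.027 with an E-box (n = 27, 0 called higher and 4 lower). Without it the median was -0.02 (n = 100, 6 called higher and 8 lower). Over all named genes tested, the medians were -0.0067 for the 1220 with an E-box and -0.0067 for the 10315 without.

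**Figure D4:**
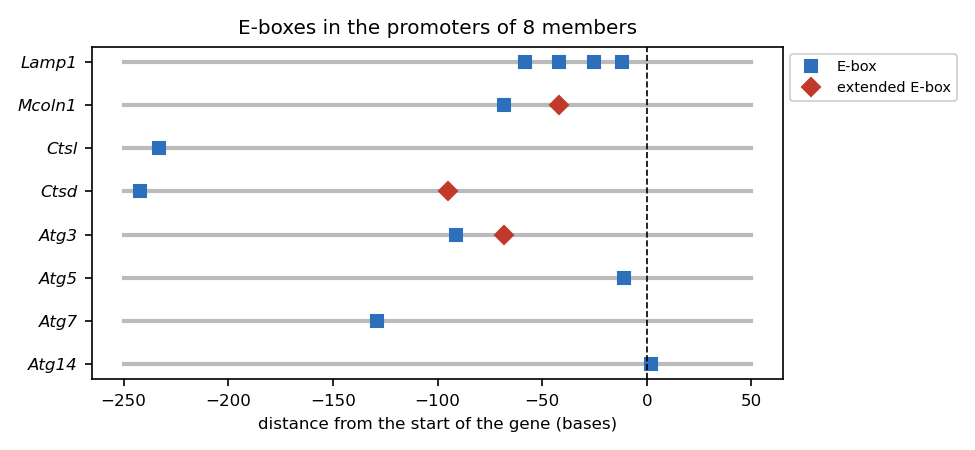
Positions of the E-box in the promoters of 8 members, in bases from the start of the gene (horizontal axis, dashed line at the start); grey lines span the window searched. Squares mark the centre of the 6-letter E-box and diamonds that of its 8-letter form; the 4 boxes of Lamp1 begin between -61 and -15.

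A wider set of 161 pathway genes, in 6 lists, was set beside the members. Among the 148 that were tested there were 6 rises and 14 falls, and 128 genes did not pass. The shares over all tested clusters with 1 symbol were 3.55% higher and 5.97% lower. Neither the counts of the wider genes nor those of the single lists below were tested against these shares. With only the brightest 40% of clusters kept, 803 of 14638 clusters with 1 symbol were called higher and 1464 lower. In that setting 9 wider genes were called higher and 17 lower. Medians here are over every gene of a list that has a cluster, the 4 too dim to test (Ctsk, Abcb9, Atp6v0d2 and Rragd) included. Leaving out wild-type array 1, 2 or 3 gave 2, 3 and 2 rises and 8, 5 and 5 falls. Leaving out any 1 of the knockout arrays gave 4 rises and 7 falls. The calls of 2 rises (Ddit4 and Foxo1) and 5 falls (Calcoco1, Cln3, Slc38a9, Mlst8 and Prkab1) held in all 6 of these runs. The falls named below beyond these 5 were lost in at least 3 runs, the rise of Ctsz without wild-type array 1 or 3, and that of Cd63 without any 1 of the wild-type arrays.

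Further autophagy genes had a median change of -0.093, and 3 of 27 fell while 0 rose. Pik3c3, the lipid kinase that works with Beclin 1, had a log2 change of -0.39, Ambra1, a regulator of that complex, -0.29 and Wdr45, a relative of the WIPI proteins, -0.26 (limma with BH, adjusted p from 0.037 to 0.0499). Pik3r4, another subunit of the kinase complex, went from a mean of 7.98 ± 0.05 to 7.70 ± 0.10 (SD, n = 3) and did not pass (adjusted p = 0.071 from limma). Snap29, a fusion protein of the autophagosome, had a change of -0.30 and overlapping groups. Ambra1 and Wdr45 lost their calls without any 1 of the arrays, and Pik3c3 without any 1 except knockout array 1.

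Of 13 further receptors and mitophagy genes, 2 fell and 0 rose. Calcoco1, a receptor gene of selective autophagy, went from 8.47 ± 0.05 to 7.96 ± 0.09 (SD, n = 3), a log2 change of -0.51 (SE 0.07; limma with BH, adjusted p = 0.0081). Retreg1, a receptor for fragments of the endoplasmic reticulum, had a change of -0.33. Tollip and Bnip3l had changes of 0.14 and -0.18 and did not pass. The called receptors differed in direction, with Sqstm1 higher and Nbr1, Calcoco1 and Retreg1 lower.

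The wider lysosomal lists had medians closer to 0 than the lysosomal members. Of 34 tested hydrolase genes 1 rose and 1 fell, with a median change of 0.017. Ctsz, encoding cathepsin Z, rose from 9.62 ± 0.11 to 10.23 ± 0.15 (SD, n = 3), by 0.61, and Sgsh, encoding a sulfatase that degrades heparan sulfate, had a change of -0.42. The largest changes that did not pass were Pla2g15 with -0.24 and Lipa, the acid lipase gene, with 0.20. Of 26 tested genes of the lysosomal membrane and of sorting 1 rose and 4 fell, with a median of -0.013. Cd63, a tetraspanin gene of late endosomes, rose by 0.39. Slc38a9, the arginine sensor that signals to mTORC1, went from 7.81 ± 0.04 to 7.27 ± 0.07 (SD, n = 3), a change of -0.55 (limma with BH, adjusted p = 0.0049). Cln3 had a change of -0.42, Igf2r, a sorting receptor for lysosomal enzymes, -0.40 and Ctns, the cystine exporter, -0.39. Tpcn1 and Slc17a5, with 0.23 and -0.28, did not pass.

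The V-ATPase acidifies the lysosome. Of 15 tested subunit genes 2 rose and 0 fell, and the list's median was -0.040. Atp6v0a1 rose by 0.30 and Atp6ap2 by 0.27 (limma with BH, adjusted p = 0.028 and 0.027), calls that were lost without any 1 of the 6 arrays. Atp6v0d1 had a change of 0.32 and Atp6v0b of -0.19, and neither passed.

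Nutrient sensing sits upstream of both ULK1 and TFEB. Of 33 tested genes 2 rose and 4 fell, with a median of -0.045. Ddit4, an inhibitor of mTORC1 induced by stress, rose from 8.74 ± 0.10 to 9.68 ± 0.23 (SD, n = 3), by 0.93. Foxo1, a transcription factor with autophagy genes among its targets, rose by 0.91. Prkab1, a subunit of the energy sensor AMPK, had a change of -0.62, Sesn1, which inhibits mTORC1, -0.59, Mlst8, an mTOR subunit, -0.55 and Zkscan3, a repressor of lysosomal genes, -0.29. The 6 adjusted p-values from limma ran from 0.0014 to 0.0499, and Zkscan3 lost its call without any 1 of the arrays. Foxo3, known for sustaining autophagy genes in HSCs, had a change of -0.28 (limma with BH, adjusted p = 0.063), and Fnip1 one of 0.33 (0.062).

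**Figure D5:**
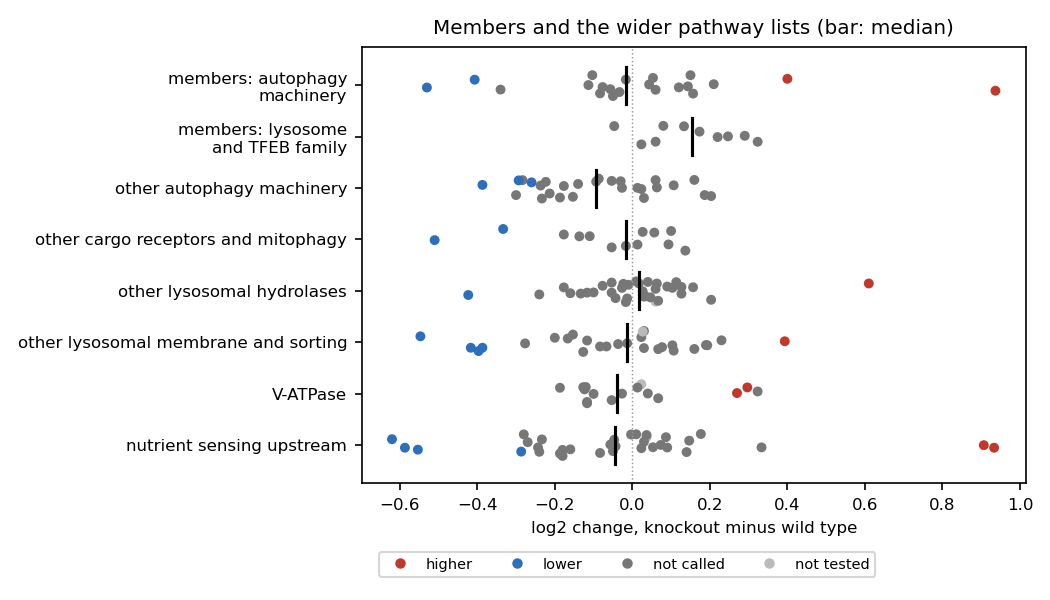
Log2 change (knockout minus wild type, horizontal axis) of each member and each gene of the 6 wider lists, with a black bar at the median of each list. Red and blue points were called higher and lower, dark grey points were not called and pale grey points not tested; the members of the lysosome and TFEB family have a median of 0.15 and the wider lists medians between -0.093 and 0.017.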

How the data were processed

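The authors deposited 1 table of log2 expression values, 65956 transcript clusters by 6 arrays, running from 2.04 to 19.93. The submitters' processing notes name MAS5 with no role or version. No source used here gives the background correction, probe summary or normalization, and the log base was read from the values, so fold sizes depend on that reading. The number of arrays limits the precision, and no scan dates or batches were at hand.

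Genes were named from the platform annotation (30604 clusters with 1 symbol, 2146 with several, 33206 with none), and 827 symbols were updated through the RefSeq gene table. A member is the brightest cluster with exactly its symbol. The dimmest 40% of clusters were left out, which put the limit at 4.09. limma 3.58.1 in R 4.3.3 fitted genotype with an intensity trend over the rest. P-values are two-sided, intervals are 95% moderated ones, and each is for a single gene. Summed levels add 2 to the power of each value. Sums without the brightest marker were added after the data were seen. The fit was checked on simulated data. Python 3.11.15, pandas 2.3.3 and matplotlib 3.10.9 made tables and plots.

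The members, gene lists, tests and alternatives were chosen with earlier results of these data known. All members were named. In each wider list up to 4 called genes per direction by smallest p and the 2 largest changes that did not pass were named, and in marker lists up to 2 called genes per direction. Hlf, Procr, Slamf1 and Tfec were named beyond this rule, after their values were seen. Lists got no test of their own.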

Additional observations from a re-analysis of the deposited data

How the results depend on the processing

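Sqstm1 was called in all 12 alternatives, Nbr1 in 11, Atg16l1 in 9 and Gabarapl1 in 8, each with its sign kept. Settings that alter only the filter or the fit leave a change, and so its sign, as it is. The arrays share replicate numbers, but the deviations of same-numbered arrays from their group means correlated at -0.14, -0.10 and 0.025, so the numbers do not pair them. With the replicate block, 1 member was called higher and 1 lower, 2 and 4 of the wider genes, and 1713 clusters in all against 3086; Atg16l1 (adjusted p = 0.058) and Nbr1 (0.054) lost their calls. With no filter 8 wider genes were called lower in place of 14. The median of the autophagy machinery was 0.019 after quantile normalization and -0.047 with a common median, where that of the lysosomal and TFEB-family genes was 0.12. With 1 array left out, members called higher and lower were each 1 to 2, wider genes 2 to 4 higher and 5 to 8 lower, and all clusters 1301 to 2325. The medians then ran from -0.038 to 0.035 and from 0.13 to 0.18. Changes near 0 turned sign: Atg5 to 0.019 after quantile normalization (-0.055 to 0.015 with 1 array left out), Hexa to -0.0067 with a common median (-0.0067 to 0.058) and Gabarapl2 (-0.080 to 0.035). The cause of these shifts was not tested. Every member has 1 cluster, so averaging clusters changed nothing for them.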
